A study of Mus musculus with 6 samples.

Results

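The enzymes of glycolysis, the pyruvate dehydrogenase complex and the citric acid cycle, with 3 carriers for glucose and lactate, were followed in RNA from 2 classes of mouse cortical cells. The module had 35 listed genes, and its members were all probe sets whose platform annotation names exactly 1 of these genes. This gave 82 of the 45101 probe sets on the array and 33 of the 35 genes. Gpi1 and Eno1 were named by no such probe set and were not analysed here. Gapdh was named only by 3 control probe sets, which are described separately, so 32 members were among the 11821 genes tested. The RNA came from translating ribosome affinity purification (TRAP), which pulls tagged ribosomes and their bound messages out of a tissue lysate. A bacterial artificial chromosome (BAC) carrying a driver gene's regulatory DNA decides which cells make the tag. One group was the S100a10 driver line ES691 and the other the Glt25d2 driver line DU9 (Glt25d2 is now named Colgalt2), with 3 biological replicates each by the sample titles. All mice were untreated, the tissue was cortex, and both lines had been crossed for 3 to 5 generations from FVB to C57BL/6. Each RNA sample, 15 ng of input, went through 2 cycles of amplification before hybridisation to 1 Affymetrix array. Each group is 1 transgenic line, and the labels give no age, sex or number of mice per sample. The study presents both lines as cortical pyramidal cells, and its series text states that the S100a10 BAC also marks some cells that are not neurons.

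Glycolysis splits glucose into pyruvate in the cytosol. Pyruvate is either reduced to lactate by lactate dehydrogenase or enters mitochondria, where the pyruvate dehydrogenase complex turns it into acetyl-CoA for the citric acid cycle. In brain, glucose crosses the vessel wall and enters astrocytes largely through the carrier Slc2a1 and enters neurons largely through Slc2a3, and neurons draw most of their ATP from mitochondrial oxidation. Several steps are run by isoenzymes from separate genes that differ between tissues and cell types.

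Values are linear intensities as the authors deposited them, and precision is limited by there being 3 arrays a group. A difference is S100a10 minus Glt25d2 in log2, fitted with limma over all 11821 genes, and a gene is said to have risen or fallen in S100a10 only when its Benjamini-Hochberg adjusted p was below 0.05. The median intensity per array was 20.4 to 21.3 in Glt25d2 and 35.5 to 35.8 in S100a10. Whether scaling or RNA sets this gap was not tested. The median gene differed by 0.56 as deposited and by -0.02 after quantile normalization, and both scales are given below where they matter. As deposited, 44.7% of all genes were called higher in S100a10 and 4.59% higher in Glt25d2. After quantile normalization the shares were 18.7% and 19%. S100a10 itself had a mean intensity of 15486 ± 2417 in its own line and 3237 ± 179 in the Glt25d2 line (SD, n = 3 each). Colgalt2 was at least 21.1-fold higher in the Glt25d2 line (limma adjusted p = 9.42e-06). The summed intensity of 12 neuron markers was 111272 to 114835 in Glt25d2 arrays and 128245 to 131763 in S100a10 arrays. Astrocyte markers summed to 11379 to 20730 and 31264 to 36414, and markers of mural cells and fibroblasts to 790 to 971 and 8510 to 10995, in the same order. These sums are led by their brightest genes. Counted by gene, 4 of 12 neuron markers were called higher and 2 lower in S100a10, 5 of 12 astrocyte markers higher and 1 lower, 8 of 10 mural and fibroblast markers higher and 1 lower, and 5 of 10 interneuron markers higher and 1 lower. Of 10 oligodendrocyte markers, 1 was higher (Olig2) and 2 were lower, and of 5 microglia markers only Tmem119 was called, as higher. After quantile normalization, 4 neuron markers were called higher and 4 lower, 3 and 1 astrocyte markers, and 8 and 2 mural and fibroblast markers. On that scale the counts were 5 and 1 for interneuron, 0 and 5 for oligodendrocyte and 1 and 0 for microglia markers. The part of these other cell types in the results below was not tested. In such pooled RNA, fewer cells of a type and less RNA per cell cannot be told apart.

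Of the 32 tested members, 2 rose in S100a10, against a background of 44.7% of all genes, 8 fell, against a background of 4.59%, and 22 did not pass. Hk1 and Pfkl rose. Aldoc, Dlat, Pfkm, Fh1, Suclg1, Pgk1, Pfkp and Pdhb fell. The median difference of the members was -0.11, against 0.56 over all genes. After quantile normalization 1 member was higher in S100a10 and 13 were higher in Glt25d2, with a median of -0.38 against -0.02. Centring each array on its median gave 1 and 26, against 16.6% and 31.8% of all genes. All 8 members that fell were also called lower after quantile normalization, and Ldhb, Pdha1, Cs, Idh3g and Dlst were called lower in addition on that scale. The 8 falls stood beside 542 among all 11821 genes. Without Glt25d2 replicates 1, 2 and 3 in turn, falls among members numbered 4, 3 and 8, beside 444, 369 and 749 among all genes. Without S100a10 replicates 1, 2 and 3 in turn, they numbered 6, 7 and 5, beside 402, 420 and 378. The replicate number as a block gave 3, beside 327. The differences were small for most members. A difference within 0.5 either way was found in 26 of 32 members and in 41.8% of all genes, and 3 members differed by at least 1, against 30.8% of all genes. The 3 S100a10 arrays lay wholly above the 3 Glt25d2 arrays for 5 members (55.9% of all genes) and wholly below them for 12 (7.9% of all genes).

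**Figure D1:**
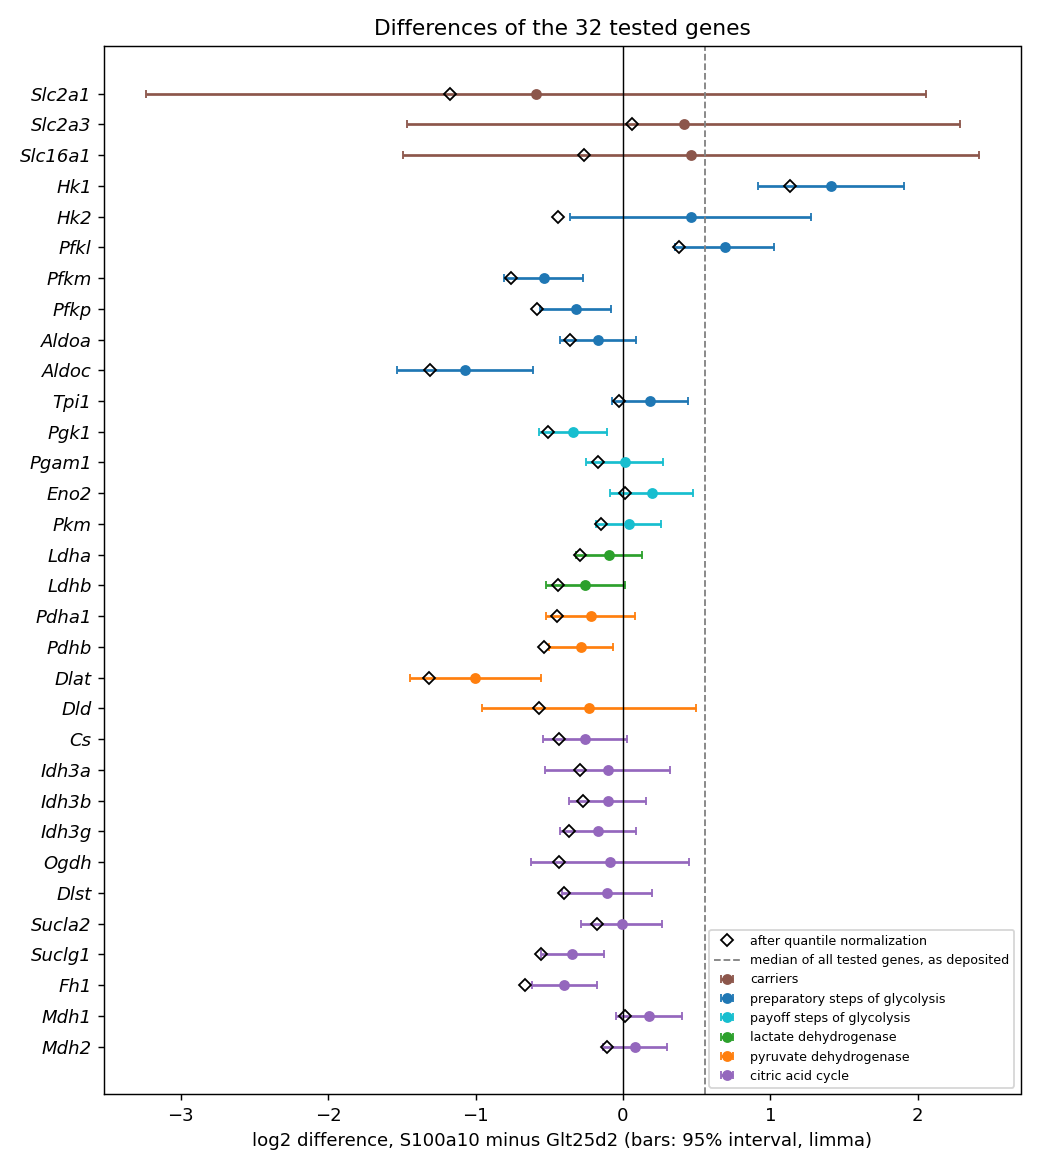
Each point is the log2 difference (S100a10 minus Glt25d2) of 1 of the 32 tested members as deposited, with its 95% interval from limma, coloured by role, and open diamonds give the value after quantile normalization. Most members lie near 0, to the left of the dashed line at the median of all genes (0.56), with Hk1 at 1.41 and Aldoc at -1.07 at the ends and wide intervals for the carriers.

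**Figure D2:**
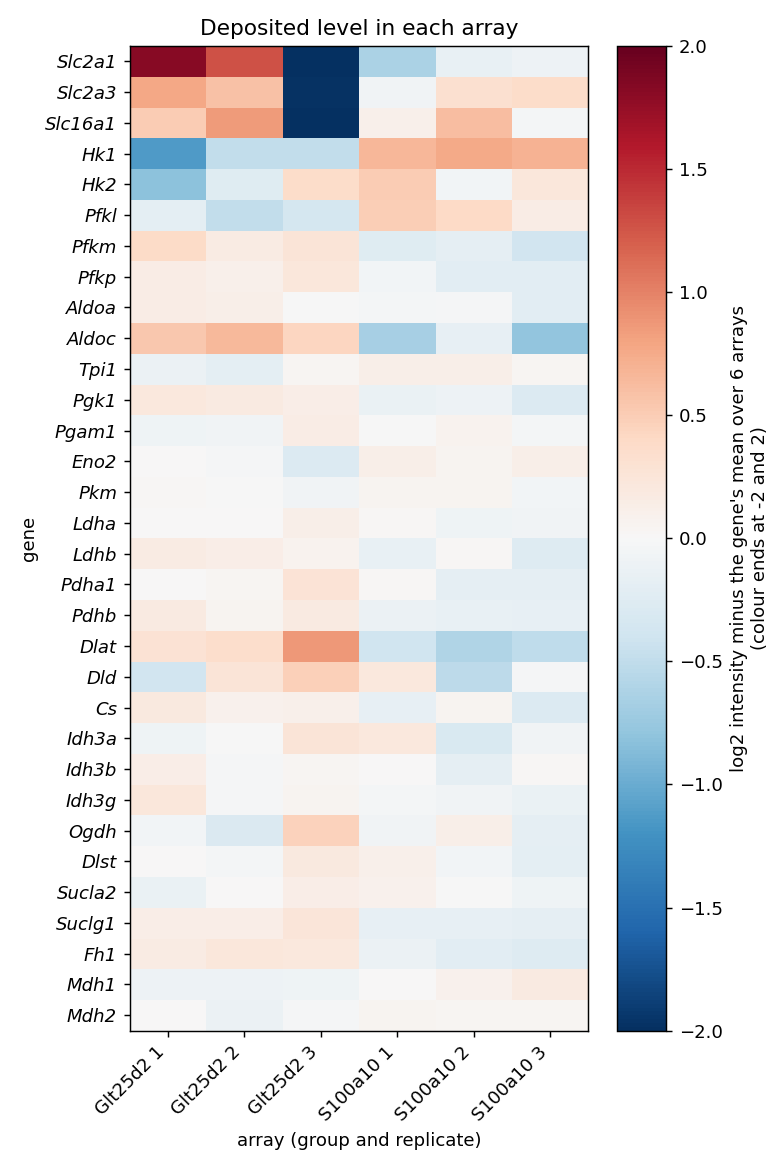
Colour gives the log2 intensity of each tested member (vertical axis) in each of the 6 arrays (horizontal axis) minus that gene's mean over the 6 arrays, ending at -2 and 2. Hk1 and Pfkl are higher in the S100a10 arrays, Aldoc and Dlat are lower, and Slc2a1, Slc2a3 and Slc16a1 are low in Glt25d2 replicate 3.

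The preparatory steps of glycolysis held the largest called differences in both directions, with 2 of 8 tested genes higher and 3 lower in S100a10 and a median of 0.01. Hk1, the hexokinase of brain that traps glucose as glucose 6-phosphate, had intensities of 2158, 3388 and 3388 in Glt25d2 replicates 1 to 3 and of 7493, 8062 and 7716 in S100a10 replicates 1 to 3. The groups were far apart, and the lowest S100a10 array was above the highest Glt25d2 array. Hk1 rose by 1.41 (SE 0.20, limma adjusted p = 0.00241), and by 1.14 after quantile normalization (adjusted p = 0.00619). Its 17 alternative fits all called it, at 0.64 to 1.52. The second tested probe set of Hk1 was called higher as deposited, at 1.09 (limma adjusted p = 0.0414 over all probe sets). That probe set was at 0.41 after quantile normalization and did not pass (adjusted p = 0.399), so the call on that scale rests on 1 probe set. Hk2, the insulin-responsive hexokinase of muscle and fat, had 57.1, 85.8 and 131 in Glt25d2 and 144, 97.2 and 119 in S100a10. These groups overlapped, and the difference of 0.46 (SE 0.33) did not pass (adjusted p = 0.289). It was 0.76 without Glt25d2 replicate 3, where it passed (adjusted p = 0.0241), and -0.44 after quantile normalization.

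Phosphofructokinase commits fructose 6-phosphate to glycolysis, and its 3 subunit genes did not move together. Pfkl, the liver-type subunit, had 3035, 2481 and 2728 in Glt25d2 and 4891, 4564 and 3876 in S100a10. All S100a10 arrays were above all Glt25d2 arrays, with a rise of 0.69 (SE 0.14, limma adjusted p = 0.00828). On the other scales it did not pass: it was 0.38 after quantile normalization (adjusted p = 0.0876) and -0.08 after centring each array on its median. The second tested probe set of Pfkl was called higher as deposited, at 0.77 (limma adjusted p = 0.0139 over all probe sets). After quantile normalization that probe set was at 0.34 and did not pass (adjusted p = 0.197). Pfkm, the muscle-type subunit, had 9315, 8046 and 8631 in Glt25d2 and 6068, 6344 and 5505 in S100a10. The order of the groups was thus the opposite of that for Pfkl, again with no overlap. Pfkm fell by 0.54 (SE 0.11, adjusted p = 0.00912), and all 17 alternative fits called it lower. Pfkp, the platelet-type subunit, had 5816, 5605 and 6128 in Glt25d2 and 5038, 4533 and 4500.0 in S100a10. Here too all S100a10 arrays were lower. Pfkp fell by 0.32 (SE 0.10, adjusted p = 0.0386), a call that was lost when any array but S100a10 replicate 1 was left out, with the replicate number as a block, and with the mean over its probe sets (-0.37, adjusted p = 0.0684).

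Aldolase cleaves fructose 1,6-bisphosphate, and Aldoc is its brain isoenzyme, used as a marker of astrocytes. Aldoc had 9121, 9806 and 8482 in Glt25d2 and 3973, 5626 and 3644 in S100a10. The groups were far apart, and Aldoc fell by 1.07 (SE 0.19, limma adjusted p = 0.00523), the largest fall among the tested members. All 17 alternatives called it lower. Its second tested probe set differed by -2.24 (adjusted p = 0.003). Other astrocyte markers went both ways, with a median of 1.06 over the 12. Gfap fell like Aldoc (at least 1.98-fold, limma adjusted p = 0.0117), and Aqp4 and Mlc1 were at -0.59 and -0.75 without passing. Aldh1l1, Sox9, Glul, S100b and Gjb6 rose. Slc1a3, Gja1, Slc1a2 and Fgfr3 were at 2.49, 1.98, 1.06 and 0.95 without passing. Slc1a3, Gja1 and Slc1a2 were low in Glt25d2 replicate 3, as were Aqp4, Mlc1 and Gjb6. Without that array, Slc1a3, Gja1 and Slc1a2 were at 1.16, 0.76 and 0.07, and Aqp4 and Mlc1 fell by 1.41 and 1.74. In that fit 8 of the 12 were called higher and 3 lower (55.8% and 6.34% of all genes). After quantile normalization of all arrays, 3 of the 12 were called higher and 1 lower (18.7% and 19% of all genes), and Sox9 and Glul did not pass. Aldoa, the muscle form and the main aldolase of most tissues, had 33521, 32519 and 29967 in Glt25d2 and 29464, 29747 and 26088 in S100a10. It did not pass, at -0.17 (SE 0.10, adjusted p = 0.218). Tpi1, which interconverts the triose phosphates, differed by 0.19 (SE 0.10, adjusted p = 0.19). Its other tested probe sets differed by -0.23 and -0.04 and did not pass as deposited. The first of these was called lower after quantile normalization, at -0.38 (limma adjusted p = 0.0372 over all probe sets).

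The regions around the start sites of the 4 members with the largest called differences are shown to set sequence beside these values, rises first. They are from RefSeq (GRCm38.p6), 250 bases before to 50 after the most upstream start of the gene, written 5′ to 3′ on the gene's strand. Capitals mark ACGTG or GCGTG, or on the other strand CACGT or CACGC, the core letters bound by hypoxia-inducible factor, a regulator known for its action on glycolytic genes. Hk1 lies at chr10:62379859-62380158 (minus strand), Pfkl at chr10:78009758-78010057 (minus strand), Aldoc at chr11:78322823-78323122 (plus strand) and Dlat, described with its complex, at chr9:50659731-50660030 (minus strand).
Hk1: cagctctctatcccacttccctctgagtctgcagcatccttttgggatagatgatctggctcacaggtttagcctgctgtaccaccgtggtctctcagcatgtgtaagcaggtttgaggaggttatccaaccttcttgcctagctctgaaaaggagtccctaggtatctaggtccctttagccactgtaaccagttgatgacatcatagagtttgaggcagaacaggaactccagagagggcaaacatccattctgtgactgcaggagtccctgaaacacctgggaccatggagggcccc
Pfkl: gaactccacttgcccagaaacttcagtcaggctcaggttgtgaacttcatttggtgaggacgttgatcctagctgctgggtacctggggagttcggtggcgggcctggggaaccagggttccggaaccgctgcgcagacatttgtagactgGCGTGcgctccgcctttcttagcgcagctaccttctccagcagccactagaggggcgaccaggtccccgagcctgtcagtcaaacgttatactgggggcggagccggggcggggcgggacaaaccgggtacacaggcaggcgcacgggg
Aldoc: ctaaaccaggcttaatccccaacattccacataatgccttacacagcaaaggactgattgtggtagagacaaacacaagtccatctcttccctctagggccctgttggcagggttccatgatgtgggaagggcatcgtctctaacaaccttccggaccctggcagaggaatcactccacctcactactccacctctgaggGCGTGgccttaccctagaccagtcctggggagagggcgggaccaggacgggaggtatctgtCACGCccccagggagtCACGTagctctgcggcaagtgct
Dlat: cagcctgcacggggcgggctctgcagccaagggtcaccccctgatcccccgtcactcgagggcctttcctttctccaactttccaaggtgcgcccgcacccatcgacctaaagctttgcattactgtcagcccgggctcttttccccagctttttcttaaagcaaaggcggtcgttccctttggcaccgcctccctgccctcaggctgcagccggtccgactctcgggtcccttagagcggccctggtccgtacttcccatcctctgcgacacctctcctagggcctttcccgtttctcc
The window of Aldoc held 3 matches, that of Pfkl 1, and those of Hk1 and Dlat 0. Hk1 and Aldoc have 2 annotated starts each, Pfkl and Dlat 1 each, and only the most upstream was read. Which start is used in these cells was not tested. The motif was in 21 of the 33 member promoters with an entry (63.6%), in 63.9% of the 9582 promoters of tested genes and in 43.8% of all 27025 promoters of this length, so its share among members was near that among tested genes. ACGTG alone was in 39.4% of member promoters and 25.8% of those of tested genes, and GCGTG in 51.5% and 52.4%. The GC box GGGCGG, counted on both strands like the others, was in 63.6% and 65.3%, and CCAAT in 42.4% and 38.3%. The median GC content was 59.7% and 61.3%. A promoter counted for 1 motif may also hold another, and matches of different motifs may overlap. A match is a description of letters and not of a bound site.

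Of the payoff steps of glycolysis, which return ATP and NADH, 1 of 4 tested genes fell, none rose and the median difference was 0.03. Pgk1, the first ATP-yielding enzyme, had 14871, 14572 and 14131 in Glt25d2 and 11810.4, 12008 and 10696 in S100a10. The groups did not overlap, and Pgk1 fell by 0.34 (SE 0.09, limma adjusted p = 0.0283), a call that was lost without Glt25d2 replicate 1 or 2 or S100a10 replicate 1 or 3 (adjusted p = 0.0513 to 0.0932). Its other 2 tested probe sets differed by -0.12 and -0.05 and did not pass, and the mean over its probe sets gave -0.17 (adjusted p = 0.179). Eno2, the neuronal enolase, had 20469.6, 19877 and 16695 in Glt25d2 and 21912, 21074 and 22086 in S100a10. All S100a10 arrays were above the others, at 0.20 (SE 0.11), without passing (adjusted p = 0.2). Pgam1, phosphoglycerate mutase, differed by 0.01 with a 95% interval of 0.26 to either side (adjusted p = 0.929). Pkm, pyruvate kinase, differed by 0.04 with an interval of 0.22 to either side (adjusted p = 0.721).

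Gapdh, the NADH-forming step, was read from its 3 control probe sets by an exact two-sided permutation test, since controls were outside the fit. Its 3′ probe set had 28036 ± 853 in Glt25d2 and 28303 ± 168 in S100a10 (SD, n = 3 each), a difference of 0.01 (exact p = 0.6). The middle probe set had the value 15186 in all Glt25d2 arrays and 15271 ± 920 in S100a10 (n = 3, exact p = 1). The 5′ probe set had 7720 ± 670 and 9210 ± 805, a difference of 0.25 (n = 3 each, exact p = 0.2). With 3 arrays against 3 no p below 0.1 is possible. The log2 ratio of 3′ to 5′ signal, a sign of RNA length, was 1.86 ± 0.168 in Glt25d2 and 1.62 ± 0.136 in S100a10 for Gapdh, and 2.16 ± 0.200 and 2.18 ± 0.200 for the control gene Actb.

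Lactate dehydrogenase joins pyruvate and lactate. Ldha, the muscle-type subunit, had 11065, 11065 and 11835 in Glt25d2 and 11101, 10289 and 10425 in S100a10, so the groups overlapped. Its difference of -0.09 (SE 0.09) did not pass (limma adjusted p = 0.413). Ldhb, the heart-type subunit, had 30651, 30092 and 28835 in Glt25d2 and 24639.5, 27835 and 22854 in S100a10. All its S100a10 arrays were lower, at -0.25 (SE 0.11, adjusted p = 0.103), and it passed after quantile normalization, at -0.44 (adjusted p = 0.0314). Its other 3 tested probe sets were called lower as deposited, at -0.38, -0.39 and -0.32 (limma adjusted p = 0.0417, 0.0371 and 0.0373 over all probe sets).

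Of the pyruvate dehydrogenase complex, 2 of 4 genes fell and none rose, with a median of -0.26. Dlat, the acetyltransferase core whose promoter window is printed above, had 4299, 4463 and 6392 in Glt25d2 and 2672, 2313 and 2469 in S100a10. The groups did not overlap, and Glt25d2 replicate 3 was the highest array. Dlat fell by 1.002 (SE 0.18, limma adjusted p = 0.00592). Its other 2 tested probe sets differed by -0.16 and -0.08 as deposited and did not pass. The mean over its probe sets gave -0.41 (adjusted p = 0.0835), so the call as deposited rests on 1 probe set. After quantile normalization these other 2 were at -0.56 and -0.48 (limma adjusted p = 0.0381 and 0.0554 over all probe sets), and the first was called lower. Pdhb, the beta subunit of the decarboxylase, had 6932, 6376 and 6932 in Glt25d2 and 5641, 5512 and 5441 in S100a10. It fell by 0.29 (SE 0.09, adjusted p = 0.041), the smallest difference among the called members, and lost the call when any of the 6 arrays was left out and with the mean over its probe sets (-0.39, adjusted p = 0.102). Pdha1, the alpha subunit, differed by -0.22 (SE 0.12, adjusted p = 0.187). Dld, the dehydrogenase shared with other complexes, differed by -0.23 with a wide interval of 0.73 to either side (adjusted p = 0.538).

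In the citric acid cycle, 2 of 11 genes fell and none rose as deposited, and 5 were called lower after quantile normalization. The median difference was -0.10. Fh1, fumarase, had 5768, 5998 and 5907 in Glt25d2 and 4724, 4411 and 4284 in S100a10. The spread within each group was small and the groups did not overlap. Fh1 fell by 0.40 (SE 0.09, limma adjusted p = 0.0135), and only Glt25d2 replicate 2 took the call away when left out (adjusted p = 0.0576). Suclg1, the subunit common to both forms of succinyl-CoA ligase, had 9734, 9782 and 10495 in Glt25d2 and 7951, 7908 and 7799.9 in S100a10. It too was lower in every S100a10 array and fell by 0.34 (SE 0.09, adjusted p = 0.0206), though not without Glt25d2 replicate 1 or 2 (adjusted p = 0.0578 and 0.0642). Sucla2, the partner subunit of the ADP-forming ligase, differed by -0.01 with an interval of 0.27 to either side (adjusted p = 0.95). The other 8 genes of the cycle were Cs, the citrate synthase that opens it, the isocitrate dehydrogenase subunits Idh3a, Idh3b and Idh3g, the oxoglutarate dehydrogenase subunits Ogdh and Dlst, and the malate dehydrogenases Mdh1 (cytosol) and Mdh2 (mitochondria). Their differences ran from -0.26 for Cs to 0.18 for Mdh1, and none passed. These values rest on the brightest probe set of each gene. Another probe set was called lower for Cs (-0.34, limma adjusted p = 0.0213 over all probe sets) and for Idh3b (-0.32, adjusted p = 0.0265), and another was called higher for Ogdh (0.40, adjusted p = 0.0221), though at -0.52 after quantile normalization. The brightest Idh3a probe set differed by -0.10 (adjusted p = 0.634), with 11367, 12012 and 14380 in Glt25d2 and 13986, 9798 and 11546.5 in S100a10, while its other 2 tested probe sets differed by -0.997 and -0.754 and were called lower.

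Pgk1, Pdha1 and Idh3g lie on the X chromosome in mouse, and sex is not given in the labels. The Y-linked gene Eif2s3y had 310, 302 and 350 in Glt25d2 and 276, 778 and 224 in S100a10.

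The 3 carriers were set by 1 array. Slc2a1 had 3202, 2204 and 197 in Glt25d2 replicates 1 to 3 and 584, 824 and 850 in S100a10. Slc2a3 had 5261, 4604 and 779 in Glt25d2 and 2931, 3834 and 3955 in S100a10. Slc16a1, which carries lactate and pyruvate across membranes, had 512, 653 and 87.3 in Glt25d2 and 387, 557 and 353 in S100a10. In each, Glt25d2 replicate 3 was the lowest of the 6 arrays and the other Glt25d2 arrays were the highest or near it. Relative to the mean log2 of the other Glt25d2 arrays, replicate 3 was at -3.75 for Slc2a1, -2.66 for Slc2a3 and -2.73 for Slc16a1. The other 29 members lay between -0.27 and 0.90 on this measure, and the median of all genes was 0.07. Of all genes, 14.5% were more than 2-fold and 8.4% more than 4-fold low in that array. Together with the carriers of the wider list below, 9 of 11 tested carriers were more than 2-fold low there, among them Slc2a13, Slc2a6 and Bsg. With all arrays no carrier passed, at -0.59 for Slc2a1 (SE 1.07), 0.41 for Slc2a3 (SE 0.76) and 0.46 for Slc16a1 (SE 0.79). Without replicate 3, 3 members were called higher in S100a10 (55.8% of all genes) and 8 higher in Glt25d2 (6.34%). In that fit, Slc2a1 fell by 1.84 (limma adjusted p = 0.000475) and Slc2a3 by 0.47 (adjusted p = 0.0421), while Slc16a1 was at -0.45 (adjusted p = 0.115). With quantile normalization as well, 1 member was called higher in S100a10 (24.1% of all genes) and 16 higher in Glt25d2 (23.7%), among them all 3 carriers, at -2.28 for Slc2a1, -0.77 for Slc2a3 and -1.03 for Slc16a1.

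**Figure D3:**
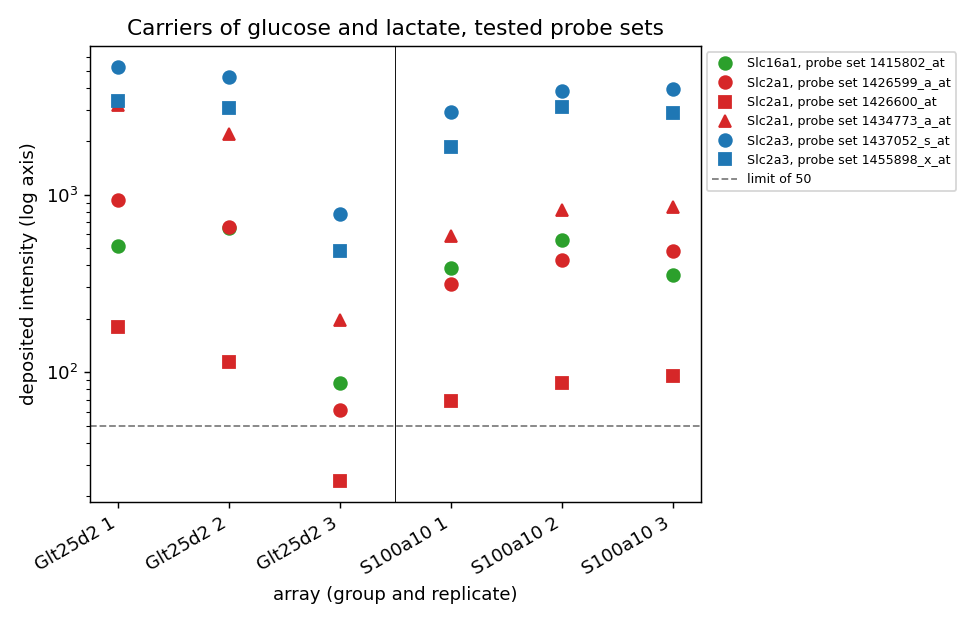
Deposited intensity on a log axis of each tested probe set of Slc2a1, Slc2a3 and Slc16a1 in the 6 arrays, with the limit of 50 as a dashed line and the groups parted by a vertical line. The brightest Slc2a1 probe set falls from 3202 and 2204 in Glt25d2 replicates 1 and 2 to 197 in replicate 3, and lies at 584 to 850 in S100a10.

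Genes of many cell types were low in the same array. More than 2-fold low in Glt25d2 replicate 3 were 3 of 5 tested endothelial, 6 of 12 astrocyte, 4 of 10 interneuron, 3 of 10 oligodendrocyte, 2 of 5 microglia, 2 of 10 mural and fibroblast and 2 of 12 neuron markers. Among the neuron markers these were Syt1, with 13806, 12212 and 2258 in Glt25d2, and Slc17a7, with 134, 138 and 46.1, although the neuron sum hardly moved. Markers of 1 cell type did not move together in that array. Of astrocyte markers, Aqp4, Gja1, Slc1a2, Mlc1, Gjb6 and Slc1a3 were that low, and Aldh1l1, Glul, S100b, Sox9, Gfap and Fgfr3 were not. Of interneuron markers, Sst, Npy, Slc32a1 and Vip were that low, and Gad1, Gad2, Pvalb, Lhx6, Dlx1 and Dlx2 were not. What sets the low genes apart was not tested. Endothelial markers, from cells where Slc2a1 and Slc16a1 are known to be abundant, summed to 1268, 957 and 361 in Glt25d2 replicates 1 to 3 and to 504 to 624 in S100a10. As deposited with all arrays, these markers did not move as 1 group. Cldn5 (-1.72) and Slco1a4 (-1.48) did not pass and were low in replicate 3, and Abcb1a (1.51) did not pass and was low there too. Esam fell by 0.97 and Eng rose by 0.79. Without replicate 3, Cldn5 fell by 2.63 and Slco1a4 by 2.32 (limma adjusted p = 0.000106 and 6.3e-05), while Esam stayed lower and Eng higher. After quantile normalization of all arrays, Cldn5 (-2.54), Slco1a4 (-2.34) and Esam (-1.84) were called lower. On that scale none was called higher, with Eng at -0.05 and Abcb1a at 0.76. Another 6 endothelial markers were under the intensity limit, including the defining Pecam1, Kdr and Cdh5. The part of any cell type in the carriers' values was not tested.

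The balance between isoenzymes was read as the log2 ratio of their intensities within each array, which cancels a single factor per array but not quantile normalization. The position of such a ratio depends on the probes, so only its shift between groups was read. For 7 of 8 planned pairs a ratio could be formed, Eno1 being without a probe set of its own, and each was tested with an exact two-sided permutation test of 3 arrays against 3, whose smallest possible p is 0.1. Those with no overlap, 6 of 7, all reached it, with p = 0.117 after Benjamini-Hochberg adjustment over the 7 pairs in the exact test, so none passed. These pairs share the values of members already described and hold no separate evidence.

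Within phosphofructokinase, the Pfkl to Pfkm ratio was -1.66 ± 0.0400 in Glt25d2 and -0.43 ± 0.105 in S100a10, a shift of 1.23 (SD, n = 3 each). The Pfkl to Pfkp ratio shifted by 1.01, from -1.09 ± 0.135 to -0.08 ± 0.118. Relative to the other phosphofructokinase subunits, Pfkl was higher in every S100a10 array than in any Glt25d2 array. The Pfkm to Pfkp ratio moved by -0.22. For hexokinase, the Hk1 to Hk2 ratio was 5.08 ± 0.333 in Glt25d2 and 6.03 ± 0.339 in S100a10, a shift of 0.95, which was 1.58 after quantile normalization. For aldolase, the Aldoa to Aldoc ratio was 1.81 ± 0.0748 and 2.71 ± 0.268, a shift of 0.90, which was 1.56 with the mean over each gene's probe sets. The Ldha to Ldhb ratio shifted by 0.16 with overlapping arrays (exact p = 0.2, n = 3 each), and by 0.11 to 0.26 over the alternatives, the highest without S100a10 replicate 2. The glucose carriers Slc2a1 and Slc2a3 had a ratio of -1.25 ± 0.655 in Glt25d2 and -2.25 ± 0.0623 in S100a10, a shift of -1.001, with Glt25d2 replicate 3 nearest to the S100a10 arrays at -1.98. No ratio changed its direction under the alternatives run. Over these the Pfkl to Pfkm shift ranged from 1.13 to 1.27 and that of Slc2a1 to Slc2a3 from -1.51 (quantile normalization without Glt25d2 replicate 3) to -0.58 (mean over probe sets).

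**Figure D4:**
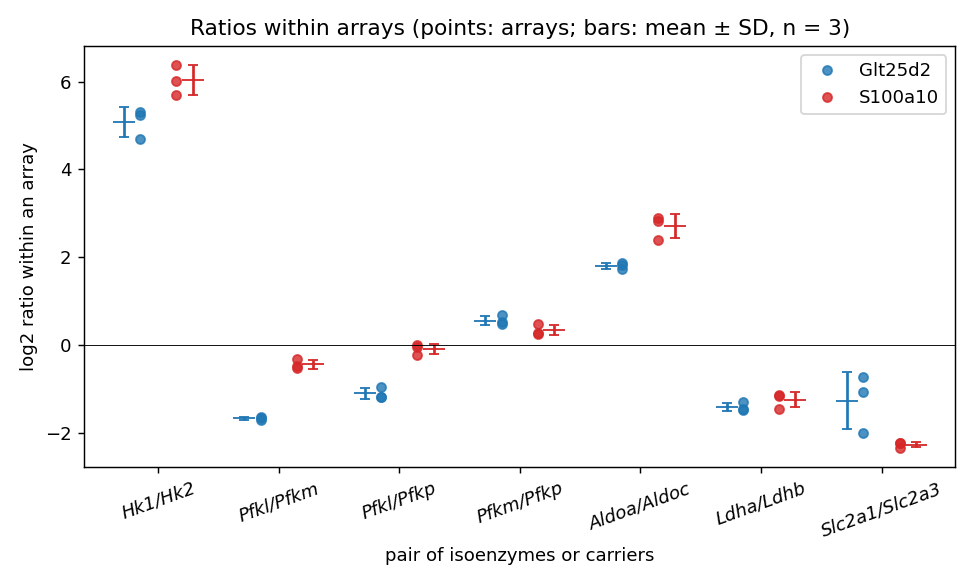
Points are the log2 ratio of both members of each pair within 1 array, blue for Glt25d2 and red for S100a10, and bars are the mean ± SD (n = 3). The groups are parted in all pairs but Ldha to Ldhb, with the clearest gap for Pfkl to Pfkm (-1.66 against -0.43).

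Members were among the brightest genes, and the difference between the groups depended on brightness. When tested genes were ranked by their mean intensity, 23 of the 32 members fell in the top 10th, from 4526 upward. Intensity also depends on the probes, so this is a rank of brightness on the array and not of RNA amount. In that top 10th the median difference of all genes was 0.17 as deposited and -0.04 after quantile normalization, and 25.4% of genes were called higher in S100a10 and 6.01% higher in Glt25d2. In the lowest 10th the median was 1.36 and 74.9% were called higher in S100a10. Of the 23 bright members, 1 rose and 7 fell, with a median of -0.17. After quantile normalization 1 was higher in S100a10 and 11 were higher in Glt25d2, against 10.7% and 15.1% of all genes in the top 10th, and the median was -0.36. Relative to the median gene, 30 of the 32 members were lower as deposited and 27 after quantile normalization.

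**Figure D5:**
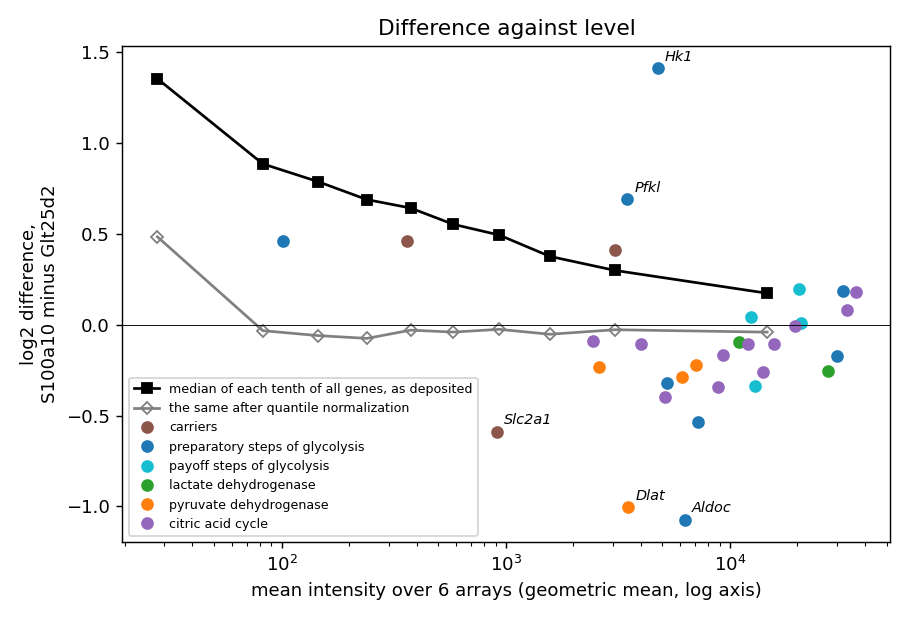
The log2 difference (S100a10 minus Glt25d2) of each tested member, coloured by role, is plotted against its mean intensity on a log axis, with the median of each 10th of all tested genes as black squares (as deposited) and grey diamonds (after quantile normalization). The black line falls from 1.36 to 0.17 with brightness, and most members lie below it at its right end.

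Of the 79 member probe sets that are not controls, 66 passed the intensity limit. Of these, 5 were called higher in S100a10 (44.2% of all 21291 tested probe sets) and 16 higher in Glt25d2 (4.39%). No gene among the 21 with more than 1 tested probe set had calls in both directions. For Aldoc, Dlat, Idh3a, Slc2a1 and Pdha1 the probe sets of a gene spread by more than 0.5, the widest being Aldoc at 1.16. The same value stood in at least 2 Glt25d2 arrays for 4 members, Hk1, Pdhb, Ldha and Mdh1, which lowers the spread measured there, and Hk1 and Pdhb are among the called. Of all 11821 tested genes, 2609 had such equal values.

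Neighbouring pathways were read from lists of genes, with no test of a list itself, and each list's median stands beside the 0.56 of all genes. Counts of genes that rose and fell are to be read against 44.7% and 4.59% of all genes as deposited, and against 18.7% and 19% after quantile normalization. Of 10 tested other glycolytic and gluconeogenic enzymes, 3 rose and 1 fell, with a median of 0.17. Pgam2, the muscle phosphoglycerate mutase, fell by 2.56, from 396 ± 0.521 to 67.5 ± 7.12 (SD, n = 3 each, limma adjusted p = 3.01e-05). The same Pgam2 value stood in 2 Glt25d2 arrays, which lowers the spread measured there. Eno3, the muscle enolase, rose by 1.87, from 65.6 ± 3.56 to 240 ± 16.1. Muscle-type genes of these adjacent steps thus ran in opposite directions. Pck2, mitochondrial phosphoenolpyruvate carboxykinase, rose by 0.57 and was at -0.03 after quantile normalization, and Bpgm, which makes 2,3-bisphosphoglycerate, rose by 0.55 and was at 0.18 there. After quantile normalization the counts were 1 and 6. The 3 that rose became 1 without Glt25d2 replicate 2 or S100a10 replicate 1, and the 1 that fell became 2 without Glt25d2 replicate 3.

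Of 12 tested genes of pyruvate entry and its control, 4 rose and none fell as deposited (median 0.31), while none was higher in S100a10 and 3 were higher in Glt25d2 after quantile normalization. Pdk2, a kinase that switches off pyruvate dehydrogenase, rose by 1.21, and Pdp2, a phosphatase that switches it on, was at least 1.79-fold higher in S100a10. The mitochondrial pyruvate carrier subunit Mpc1 rose by 0.53 and pyruvate carboxylase, Pcx, by 0.40, while Pcx was at -0.30 after quantile normalization.

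Of 8 tested other citric acid cycle enzymes, 4 rose and 1 fell (median 0.51), and 2 and 2 were called after quantile normalization. Idh2, the mitochondrial isocitrate dehydrogenase that makes NADPH, rose by 2.32, from 169 ± 20.3 to 862 ± 229 (SD, n = 3 each, limma adjusted p = 0.000633). Suclg2, the partner of Suclg1 in the GTP-forming ligase, rose by 2.32, from 200 ± 35.9 to 991 ± 128 (adjusted p = 0.000214), while Suclg1 fell. Both stayed called after quantile normalization, at 1.66 and 1.68. The succinate dehydrogenase subunit Sdhc rose by 0.86 and the cytosolic aconitase Aco1 by 0.80, both without passing after quantile normalization. Sdha, the catalytic subunit of succinate dehydrogenase, fell by 0.52, and without S100a10 replicate 1 or 3 none of these 8 genes fell, while 2 did without S100a10 replicate 2. Of 7 tested genes of the shuttles that carry cytosolic NADH electrons into mitochondria, none rose and 3 fell (median -0.13), and none and 4 were called after quantile normalization. Gpd1, the cytosolic glycerol 3-phosphate dehydrogenase, fell by 0.75, Got1, the cytosolic aspartate aminotransferase, by 0.51, and Gpd2, the mitochondrial glycerol 3-phosphate dehydrogenase, by 0.47. Leaving out Glt25d2 replicate 2 or S100a10 replicate 2 or 3 left 1 of these calls, and leaving out Glt25d2 replicate 1 or S100a10 replicate 1 left 2. Got1 lost its call in 4 of these fits and Gpd2 in 4.

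Of 6 tested pentose phosphate pathway genes, 3 rose and none fell (median 0.68), and 1 and 1 were called after quantile normalization. Pgd, which oxidises 6-phosphogluconate, rose by 1.28 and was at 0.96 after quantile normalization, where it still passed. Pgls rose by 0.88 and Rpia by 0.73, both without passing there. Of 10 tested genes of glycogen and glucose phosphate, 3 rose and none fell (median 0.13), against 2 and 4 after quantile normalization. Pygm, the muscle glycogen phosphorylase that astrocytes also use, was at least 6.21-fold higher in S100a10. Pgm2 rose by 1.51 and Gys1 by 0.37, and Gys1 was at -0.49 after quantile normalization. The 8 tested other hexose and monocarboxylate carriers had a median of 1.23, and 2 rose, Slc2a12 at least 3.60-fold and Slc2a4 by 0.72, the latter at -0.23 after quantile normalization. In 6 of these 8, Glt25d2 replicate 3 was more than 2-fold low, and without it 4 rose and 1 fell.

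Of 11 tested hypoxia response genes outside glycolysis, 6 rose and none fell (median 0.87), against 3 and 1 after quantile normalization. The 6 of 11 stand beside 44.7% of all genes. Adm, which encodes the vasoactive peptide adrenomedullin, was at least 3.70-fold higher in S100a10 and Vegfa, the vessel growth factor, at least 3.43-fold. Ddit4, a stress-induced inhibitor of mTOR signalling, had 304, 314 and 1333 in Glt25d2 and 2936, 2317 and 1883 in S100a10. It rose by 2.22 (SE 0.61, limma adjusted p = 0.0283) and lost the call when any array but Glt25d2 replicate 3 was left out. The markers of other cell types counted above differed between the groups as well. Their part in the values of these lists was not tested.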

How the data were processed

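RNA from tagged ribosomes was measured on 6 arrays. Per the submitters' processing notes, the authors ran GCRMA (version not stated), and the deposited intensities are linear. The series text speaks of averaged replicates, but the table holds 6 columns, which were used. It proposes a limit of 50 and a list of probe sets from its paper; that list was not used here. Control probe sets (64) were left out of the fit. Of the other 45037, 34945 name 1 gene, 932 several and 9160 none, and 34741 Entrez identifiers were found in the RefSeq table, with 0 symbols changed.

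Intensities were taken to log2 with no pseudocount. A probe set was kept if either group's mean reached 50, and the one with the highest mean log2 stood for a gene. The contrast of S100a10 with Glt25d2 used limma 3.58.1 (R 4.3.3) with lmFit and eBayes, and p-values were adjusted by Benjamini-Hochberg over 11821 genes, at a threshold of 0.05. The p-values measure the spread between these samples. A fold given as at least some value sets a group wholly under 50 at 50, on the deposited scale. Members and lists were chosen with earlier results of these data known. Values in every array are given for members of the isoenzyme pairs, the 5 largest differences in each direction and each member that fell, and up to 3 genes of each other list are named by size; other genes were named after their values were seen. The fit was tested on simulated data with normal noise and no shift common to all genes. That test did not cover the shift between the groups seen here. Same-numbered replicates correlated at -0.49, 0.27 and -0.26 in their deviations from the group means. Deviations within a group of 3 constrain one another, so these values cannot show whether the numbers pair the samples. The alternatives were other filters, floors, a pseudocount of 16, other scalings, the mean over probe sets, array weights, a trended prior, a block and each array left out. Promoter sequences are RefSeq's (GRCm38.p6). Python 3.11.15, pandas 2.3.3, numpy 2.4.6, scipy 1.17.1 and matplotlib 3.10.9 were used.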

Additional observations from a re-analysis of the deposited data

How the results depend on the processing

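Among the settings run, the scaling between arrays moved the counts most. Quantile normalization gave 1 member higher in S100a10 and 13 higher in Glt25d2, median centring 1 and 26, and quantile normalization without Glt25d2 replicate 3 gave 1 and 16, against 2 and 8. Whether the replicate numbers pair the samples is not known. With the replicate number as a block, 2 and 3 were called, beside 4222 and 327 of all 11821 genes. Suclg1, Pfkp, Pdhb, Pgk1 and Fh1 lost their call there. Leaving out 1 array gave 2 to 3 members higher in S100a10, beside 4246 to 6593 of all genes. It gave 3 to 8 higher in Glt25d2, beside 369 to 749 of all genes. Of 79 member probe sets, 13 lay under the intensity limit and gave no tested difference.

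After quantile normalization, the differences that changed sign were Slc16a1 -0.26, Pkm -0.15, Hk2 -0.44, Pgam1 -0.17, Mdh2 -0.11, Tpi1 -0.025, Gys1 -0.49, Pck2 -0.026 and Slc2a4 -0.23. After centring they were Slc16a1 -0.31, Pkm -0.73, Eno2 -0.57, Hk2 -0.31, Pgam1 -0.76, Mdh2 -0.69, Tpi1 -0.58, Mdh1 -0.59, Slc2a3 -0.36, Pfkl -0.077, Gys1 -0.39, Mpc1 -0.24, Pck2 -0.19, Rpia -0.036 and Slc2a4 -0.052. With array weights they were Slc16a1 -0.53, Slc2a3 -0.35, Ogdh 0.18 and Sucla2 0.00080, and with all kept probe sets of a gene averaged they were Pdha1 0.048, Mdh2 -0.072, Tpi1 -0.027 and Ogdh 0.15. Quantile normalization without Glt25d2 replicate 3 gave Slc16a1 -1.03, Pkm -0.19, Eno2 -0.076, Hk2 -0.079, Pgam1 -0.088, Mdh2 -0.088, Slc2a3 -0.77, Gys1 -0.36, Pck2 -0.0031 and Slc2a4 -0.089. With 1 array left out in turn, differences ranged over both signs for Idh3a (-0.24 to 0.021), Ogdh (-0.25 to 0.12), Pgam1 (-0.029 to 0.088), Slc16a1 (-0.45 to 1.003), Slc2a1 (-1.84 to 0.17), Slc2a3 (-0.47 to 0.90) and Sucla2 (-0.075 to 0.055). The cause of these changes was not tested.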
